A study of Triticum turgidum subsp. durum with 20 samples.

Results

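Apices at Waddington stage W3.5 (terminal spikelet) were compared with apices at W3.0 (glume primordium) in tetraploid durum wheat, variety Kronos, to find slow changes over spikelet and floret initiation that the shorter steps between stages miss. The comparison uses 8 of the 20 RNA libraries of the series, 4 at W3.5 and 4 at W3.0, chosen by their stage label alone. The 4 libraries of W3.25 (lemma primordium) divide the span into 2 steps, and the libraries of W1 (vegetative meristem) and W2 (double ridge) shared the model fit. Each library was a biological replicate made from a pool of dissected apices, about 12 of them at each stage from W3.0 on and about 20 at W1 and W2. The sources name W3.0 both glume primordium and double ridge, so stages are given by number. All groups were wild-type Kronos, an AABB wheat with the spring VRN-A1 allele (a deletion in intron 1) and the photoperiod-insensitive Ppd-A1a allele. All plants grew under 16 h light and 8 h dark at 23 ℃ by day and 17 ℃ by night.

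Between these stages the wheat spike meristem lays down the parts of each spikelet in order, first the sterile glumes, then the lemmas that enclose the florets, and then the floral organs, until a terminal spikelet closes the axis. MADS-box transcription factors set the identity of meristems and floral organs, SPL and TCP factors act in phase change and branching, and the peptide CLAVATA3 (CLV3) limits the stem cell pool of the meristem. A whole apex holds all these structures at once. A change in a pooled apex can therefore come from more or fewer cells of a type or from more or less RNA per cell, and these counts cannot tell the 2 apart.

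Library totals ranged from 23758607 to 29655553 counts at W3.5 and from 23667677 to 26753375 at W3.0. Within stages, all 30 pairs of libraries differed beyond counting noise (chi-square per degree of freedom from 2.14 to 11.6). This check cannot tell separate pools from repeat preparations of 1 pool. Every library was counted as a separate replicate because the study describes them as biological replicates. W1 replicate 1 stood apart, with values of 10.04 to 11.56 in its 3 pairs, against at most 4.33 in the other pairs. The coefficient of biological variation was 0.0723 over the W3.0 libraries, 0.0642 over those of W3.25 and 0.0596 over those of W3.5. On the first principal component of the 12 later libraries (28.8% of the variance), the 4 W3.0 libraries scored between -48.6 and -37.4, the 4 W3.25 libraries between -6.07 and 7.47, and the 4 W3.5 libraries between 28 and 49.7. Of the meristem markers, LFY had 29.4 ± 2.96 CPM (counts scaled to a common library total) at W3.5 and 36.6 ± 2.30 CPM at W3.0 (SD, n = 4 each). AP1-B1 averaged 117 CPM at W3.5 and 124 CPM at W3.0, and AP1-A3 82.9 and 66.1 CPM. The stem cell markers were low, with averages of 0.657 and 1.73 CPM for CLV3 on 2A and 0.298 and 0.484 CPM for its 2B copy. WUSb did not pass the filter on low counts. The photosystem I subunit IV pair, which marks green tissue, did not pass the test and lay between 17.4 and 17.7 CPM at W3.5 and between 18.2 and 19 CPM at W3.0.

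Over the whole span, 3031 of 48336 gene models tested were differentially expressed genes (DEGs, 6.27%), of which 1383 (2.86%) were higher and 1648 (3.41%) lower at W3.5. A DEG had to pass at an adjusted p of at most 0.01 in edgeR (quasi-likelihood) and in DESeq2 (Wald), with 1 direction. edgeR alone called 3075 and DESeq2 alone 3648. The single steps gave far shorter lists, with 397 DEGs for W3.25 against W3.0 (0.821%) and 339 for W3.5 against W3.25 (0.701%). In all, 2462 DEGs of the span (81.2% of them, 5.09% of genes tested) were DEGs in neither step and are called slow here. Of the slow DEGs, 1095 were higher (2.27% of genes tested) and 1367 lower at W3.5 (2.83%). This order turned round with edgeR on library totals alone and DESeq2 on its own scaling (1257 higher, 969 lower). Another 265 span DEGs passed only from W3.0 to W3.25, 202 only from W3.25 to W3.5, and 102 in both steps, while 60 genes passed in a step and not over the span. Slow means that the steps missed the threshold, not that the steps held no change, since 826 slow DEGs had an unadjusted edgeR p under 0.05 in both steps, 1629 in 1 step and 7 in neither. These counts depended on single libraries. Without W3.5 replicate 3 there were 1982 DEGs and 1579 slow ones, and without W3.0 replicate 3 there were 1632 slow DEGs. Without W1 replicate 1, which enters only through the shared fit, there were 3988 DEGs and 3093 slow ones.

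Most slow DEGs stood at an intermediate level at W3.25. The W3.25 mean of log2 CPM lay between the means of W3.0 and W3.5 for 98.3% of them, against 49.6% of all genes tested. The median slow rise had reached 53.8% of its change by W3.25 (quartiles 40.8% to 65.5%), and the median slow fall 44.1% (quartiles 31.8% to 56.8%). Because slow DEGs were chosen as having no called step, a middle position is in part set by that choice. The curvature contrast, the second step minus the first, is made of the same 2 steps that define a slow DEG, so its counts describe that choice and test nothing about it. edgeR called it at an adjusted p of 0.01 for 24 of all genes tested (0.0497%), for 0 of the slow DEGs and for 11 of the 569 span DEGs that were also called in a step. It had an unadjusted p under 0.05 for 117 of the slow DEGs (4.75%), for 47.8% of the span DEGs called in a step and for 5.48% of all genes tested. DESeq2 was not run on this contrast. All 4 W3.25 libraries fell between all W3.0 and all W3.5 libraries for 360 slow DEGs (14.6%), for 249 of the span DEGs called in a step (43.8%) and for 1.37% of all genes tested, of which the first 2 sets were chosen for a difference between the outer stages.

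**Figure D1:**
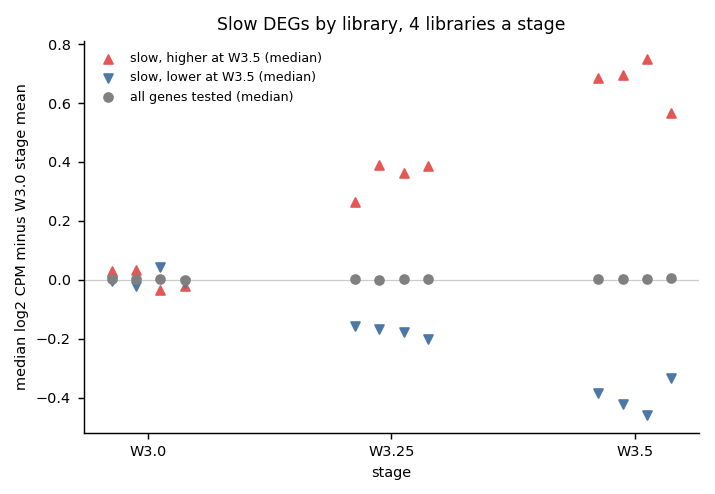
Median difference in log2 CPM from the W3.0 stage mean, for slow DEGs higher at W3.5, slow DEGs lower at W3.5 and all genes tested, with 1 point per library. Slow rises had medians of 0.264 to 0.39 in the 4 W3.25 libraries and 0.565 to 0.751 in the 4 W3.5 libraries, slow falls had -0.202 to -0.158 and -0.458 to -0.332, and all genes tested stayed near 0.

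The plot gives this course library by library. In both directions the 12 libraries separate fully by stage. For the slow falls, medians ran from -0.0208 to 0.0436 in the W3.0 libraries, -0.202 to -0.158 in those of W3.25 and -0.458 to -0.332 in those of W3.5. For the slow rises, the W3.0 medians ran from -0.0342 to 0.0334. These genes were chosen for a difference between the same W3.5 and W3.0 libraries and for no called step. The separation is therefore in part set by that choice. W3.5 replicate 4 showed the smallest displacement of its stage in both directions and replicate 3 the largest.

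Small slow changes were mostly falls. Under a log2 fold change of 0.5 in size there were 369 slow rises and 833 slow falls, so that falls made up 69.3% of this class. With edgeR on library totals alone the class held 432 slow rises and 533 slow falls. From 0.5 to 1 there were 361 rises and 346 falls, from 1 to 2 there were 279 rises and 153 falls, and at 2 or more 86 rises and 35 falls. The median size was 0.684 for slow rises and 0.401 for slow falls, against 0.136 for all genes tested. In the smallest class 94.0% of span DEGs were slow, and in that of 1 to 2 70.2%. A small change over the span divides into steps that can hardly pass, so this order follows in part from the definition of slow. With a 2-fold minimum in both tools and in all 3 comparisons, 664 DEGs counted as slow, of which 420 were higher and 244 lower at W3.5. They are not a subset of the slow DEGs above, since a step that changed less than 2-fold no longer counted as called.

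**Figure D2:**
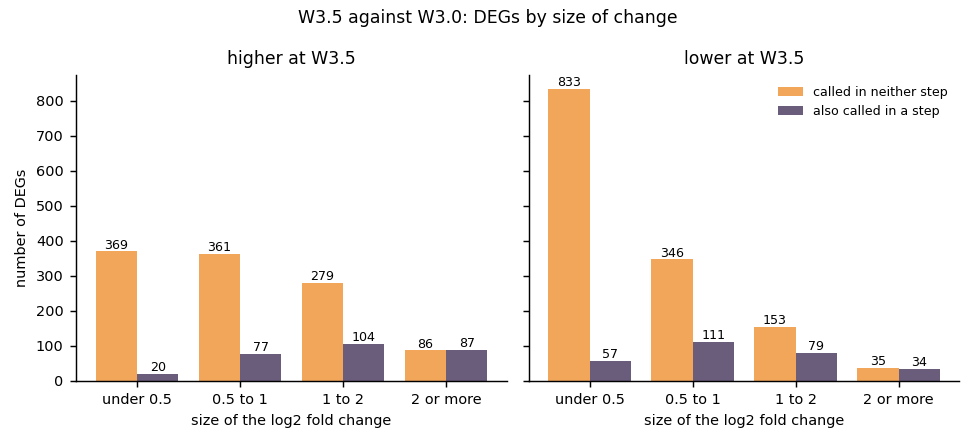
Number of DEGs of W3.5 against W3.0 by the size of the log2 fold change, for genes higher (left) and lower (right) at W3.5, divided into those called in neither step and those also called in a step. The tallest bar is the 833 slow falls under 0.5, beside 369 slow rises of that size.

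Direction also went with the level of a gene. Among genes averaging 64 CPM or more over the 20 libraries, 442 of 3208 were DEGs lower at W3.5 (13.8%) and 50 were DEGs higher (1.56%). Among genes under 1 CPM, 79 of 8635 were lower (0.915%) and 178 higher (2.06%). Over all genes tested in these 2 classes, called or not, the median log2 fold change was -0.058 at 64 CPM or more and 0.082 under 1 CPM. The part of this shift, and of the higher counts per gene at high levels, in these shares was not tested. The median slow fall came from a gene at 22.1 CPM and the median slow rise from a gene at 6.59 CPM. Small changes of abundant genes depend on scaling. With edgeR run on library totals alone, the median of all genes tested moved to 0.0527 (0.0015 with TMM) and the share of span DEGs lower at W3.5 to 42.7% (54.4% with TMM). Calls still had to pass DESeq2, which kept its own scaling, so this alternative cannot show the full effect of library totals. Within that limit, 309 genes at 64 CPM or more were lower and 71 higher.

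**Figure D3:**
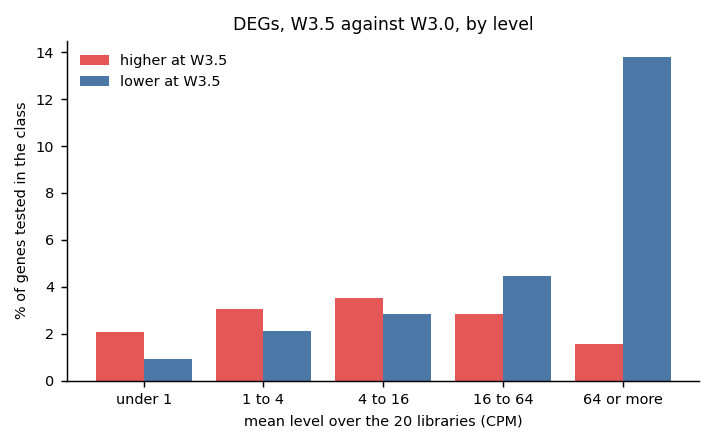
Percentage of the genes tested in each class of mean CPM that were DEGs higher or lower at W3.5. The bars for genes lower at W3.5 climb from 0.915% under 1 CPM to 13.8% at 64 CPM or more, while those for genes higher at W3.5 stay between 1.56% and 3.53%.

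Named genes came from a list of 66 spike regulators and markers, 58 of them nodes of the transcription factor network that the study built on these same libraries, so their direction is not independent evidence. Of the 65 that passed the filter on low counts, 10 rose, 18 fell and 37 did not pass, where 6.27% of all genes tested were called. Of the 28 called, 11 were slow (4 rises and 7 falls), where 81.2% of all span DEGs were slow. Without W1 replicate 1, or with only the 12 libraries of the 3 later stages in the fit, 18 listed genes were slow. The median log2 fold change of the list was -0.10, against 0.002 for all genes tested. The W3.5 and W3.0 libraries did not overlap for 40 of the 65, against 17.0% of genes tested. The DEGs with the largest changes on the list were also called in a step, while the slow members changed by 0.20 to 1.41 on the log2 scale.

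**Figure D4:**
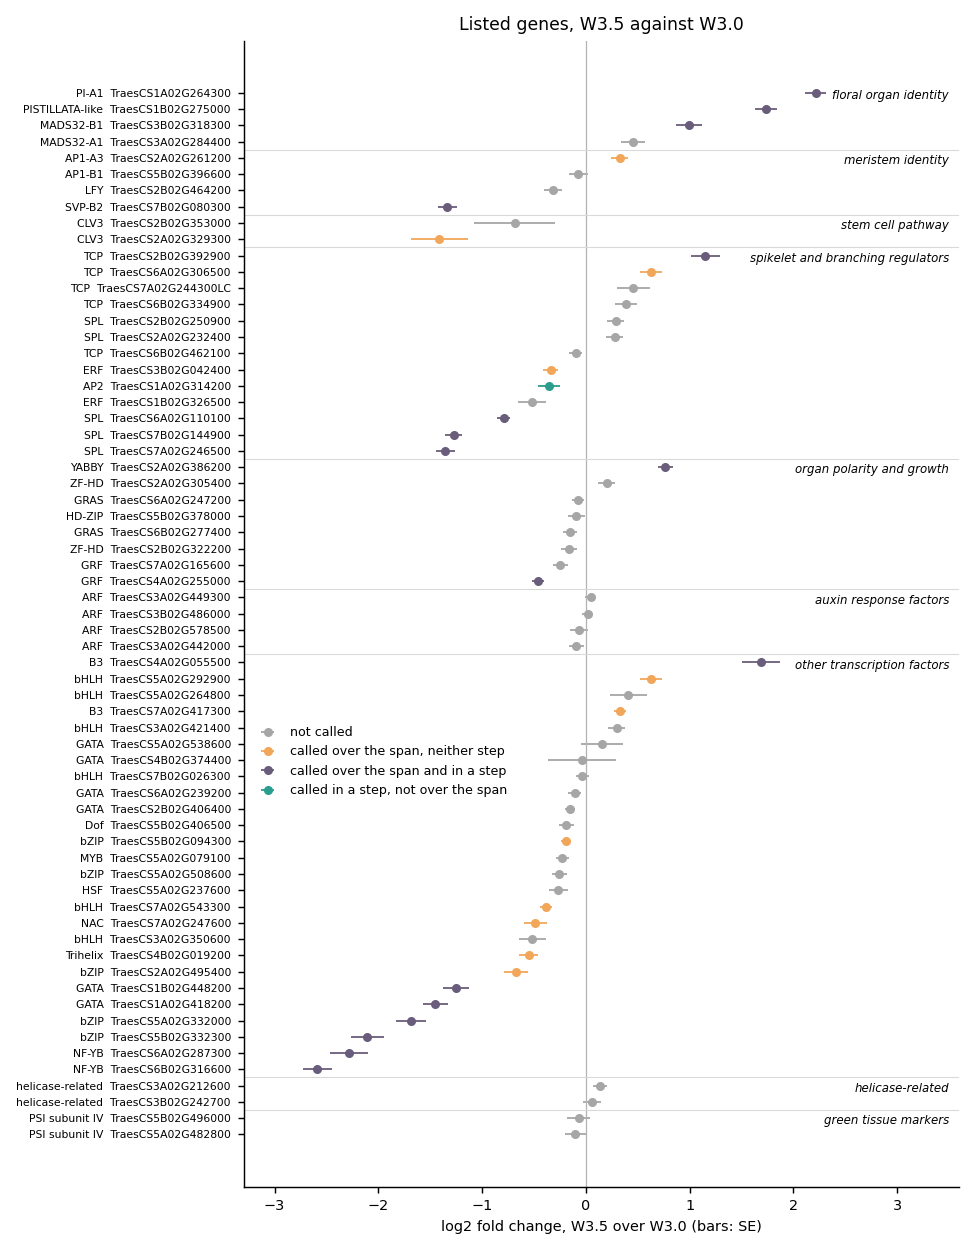
Log2 fold change of W3.5 over W3.0 with its SE for the 65 listed genes tested, grouped by role and coloured by whether the gene was called over the span only, in a step as well, in a step only, or not called. PI-A1 (2.21) and the NF-YB gene on 6B (-2.59) mark the ends, and the slow members lie mostly within 0.7 of 0.

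Of 4 floral organ identity genes, 3 rose, each called in a step as well, and 1 did not pass. PISTILLATA (PI) genes encode class B MADS-box factors that specify petals or lodicules and stamens. PI-A1 (TraesCS1A02G264300) had 24.7, 26.2, 28.2 and 20.9 CPM at W3.5, against 5.60, 5.27, 5.01 and 5.70 CPM at W3.0. Its copy on 1B (TraesCS1B02G275000) had 12.0, 13.5, 13.7 and 11.2 CPM at W3.5, against 3.93, 3.69, 3.41 and 4.15 CPM at W3.0. Neither copy had overlapping libraries, and both rose in each step, with span log2 fold changes of 2.21 ± 0.103 and 1.74 ± 0.106 (SE, adjusted p = 4.72e-14 and 7.38e-12, edgeR). Because 2 further gene models overlap the 1B copy, reads shared with them were not counted. MADS32 genes are grass MADS-box factors that act in floret development in rice. MADS32-B1 (TraesCS3B02G318300) averaged 37.5 ± 1.53 CPM at W3.5 and 18.8 ± 4.19 CPM at W3.0 (SD, n = 4 each), and rose by 0.99 ± 0.122 on the log2 scale (SE, adjusted p = 2.28e-06). MADS32-A1 averaged 124 ± 7.70 CPM at W3.5 and 90.2 ± 13.4 CPM at W3.0, a log2 fold change of 0.45 that passed edgeR (adjusted p = 0.00843) but not DESeq2 (adjusted p = 0.0346).

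Of the meristem identity genes, 1 of 4 rose, 1 fell and 2 did not pass. The slow member was AP1-A3 (TraesCS2A02G261200, chromosome 2A from 411943192 to 411950517), of the APETALA1 clade of MADS-box factors that promote floral meristem fate. It had 85.8, 82.6, 80.9 and 82.4 CPM at W3.5, against 70.3, 67.4, 64 and 62.8 CPM at W3.0. The stages did not overlap, with a rise of 0.33 ± 0.0814 on the log2 scale (SE, edgeR adjusted p = 0.00788). Most of this rise lay before W3.25, where it averaged 80.6 ± 2.01 CPM, yet the first step missed the threshold (adjusted p = 0.0726) and its curvature was not called (adjusted p = 0.994). The AP1-A3 call was lost when any of 10 libraries was left out, namely W3.0 replicates 2, 3 and 4, W3.25 replicates 1, 3 and 4 and all 4 of W3.5, with log2 fold changes of 0.30 to 0.36 over all 20 omissions. SVP-B2 (TraesCS7B02G080300) is from a MADS-box clade that includes a repressor of flowering in Arabidopsis. In wheat, the study describes members of this clade as promoting the change from vegetative to inflorescence meristem. SVP-B2 fell in both steps to 17.8 ± 2.01 CPM at W3.5, against 44.8 ± 5.68 CPM at W3.0 (SD, n = 4 each, log2 fold change -1.33 ± 0.0888 SE, adjusted p = 4.52e-11). LFY (TraesCS2B02G464200), which activates floral meristem genes in Arabidopsis, had a log2 fold change of -0.32 with libraries that did not overlap, but passed DESeq2 alone (adjusted p = 0.00774, against 0.0135 in edgeR). AP1-B1 had 117 ± 4.15 CPM at W3.5 and 124 ± 6.45 CPM at W3.0 and did not pass (adjusted p = 0.706).

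In the stem cell pathway the slow change was a fall of CLV3 on 2A. CLV3 is the secreted peptide that restricts the stem cell pool in Arabidopsis, and its rice counterpart FON2/4 limits floral meristem size. The 2A copy (TraesCS2A02G329300, chromosome 2A from 561551674 to 561552621) had 0.645, 0.698, 0.321 and 0.964 CPM at W3.5, against 2.09, 1.33, 1.60 and 1.91 CPM at W3.0. These are low levels, but all 4 W3.5 libraries lay below all 4 of W3.0, with a log2 change of -1.41 ± 0.273 (SE, edgeR adjusted p = 0.000768). It was the largest slow change on the list and was called slow with each of the 20 libraries left out, with log2 fold changes of -1.65 to -1.16. At W3.25 it still averaged 1.37 ± 0.233 CPM, and the second step missed the threshold (adjusted p = 0.0373). The 2B copy had 0.298 ± 0.112 CPM at W3.5 and 0.484 ± 0.172 CPM at W3.0 (SD, n = 4 each) and did not pass (log2 fold change -0.69, adjusted p = 0.307). WUSb (TraesCS2B02G775400LC), of the WUSCHEL family that promotes stem cells, did not pass the filter on low counts and was not tested. It had 33 counts over the 4 W3.0 libraries, 10 over those of W3.25 and 8 over those of W3.5, and the model overlaps 2 others.

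Spikelet and branching regulators moved both ways, with 2 of 13 higher at W3.5, 4 lower and 7 not passing. Some TCP factors restrain growth or branching in grasses, and whether the listed ones do was not tested. The slow TCP gene (TraesCS6A02G306500, chromosome 6A from 540144123 to 540146045) had 14.5, 13.6, 15 and 11.2 CPM at W3.5, against 7.10, 8.44, 10.7 and 8.80 CPM at W3.0. The groups did not overlap by a narrow margin (11.2 against 10.7 CPM), with a log2 change of 0.63 ± 0.107 (SE, edgeR adjusted p = 0.000183). The TCP gene on 2B (TraesCS2B02G392900) also rose, by 1.15 ± 0.137, and passed in the first step as well. The other 3 TCP genes had log2 fold changes from -0.10 to 0.46 and did not pass. Among them, TraesCS6B02G334900 (0.39) passed DESeq2 alone (adjusted p = 0.0048, against 0.0147 in edgeR). Of the 2 ERF genes, TraesCS3B02G042400 (chromosome 3B from 21770070 to 21771613) was a slow fall, with 58.1, 59.2, 59.1 and 67.0 CPM at W3.5 against 68.6, 72.8, 77.2 and 88.7 CPM at W3.0. It fell by 0.34 ± 0.072 on the log2 scale (SE, edgeR adjusted p = 0.00205), the call was lost without W3.0 replicate 4, W3.5 replicate 1 or W3.5 replicate 3 (lowest and highest over all omissions -0.39 and -0.26), and 1 other model overlaps it. ERF TraesCS1B02G326500 had a log2 fold change of -0.52 that passed DESeq2 alone (adjusted p = 0.00499, against 0.0105 in edgeR). The gene labelled AP2 in the study's network (TraesCS1A02G314200) fell from W3.25 to W3.5 but did not pass over the span (log2 fold change -0.36, adjusted p = 0.026).

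SPL factors are targets of miR156 that act in phase change and panicle branching in rice. Of 5 SPL genes, 3 fell in both steps and none was slow. SPL TraesCS7A02G246500 had 64.6, 61.8, 51.9 and 74.2 CPM at W3.5, against 164, 154, 163 and 164 CPM at W3.0, which is a log2 change of -1.35 ± 0.0911 (SE, edgeR adjusted p = 5.48e-11). TraesCS7B02G144900 fell by 1.28 and TraesCS6A02G110100 by 0.79 on the log2 scale. The remaining pair on 2A and 2B had log2 fold changes of 0.28 and 0.29 and did not pass (adjusted p = 0.0257 and 0.016).

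Among organ polarity and growth genes, 1 of 8 rose and 1 fell, neither slow. YABBY factors shape lateral organs, and the YABBY gene (TraesCS2A02G386200) rose to 63.5 ± 3.70 CPM at W3.5, against 37.4 ± 3.27 CPM at W3.0 (SD, n = 4 each, log2 fold change 0.77 ± 0.0728 SE, adjusted p = 3.27e-08), and passed in the first step. A growth-regulating factor (GRF, TraesCS4A02G255000) fell to 123 ± 6.78 CPM at W3.5, against 169 ± 5.93 CPM at W3.0, and passed in the second step. The 4 auxin response factors, which relay auxin signals to genes, were all uncalled with log2 fold changes from -0.09 to 0.05. By edgeR alone, by DESeq2 alone and at an unadjusted p under 0.05 the count for them was 0 too. The 2 helicase-related genes had log2 fold changes of 0.06 and 0.13 and did not pass, with 0 below an unadjusted p of 0.05 and 0 called by either tool alone.

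Of 26 other transcription factors, 3 rose, 11 fell and 12 did not pass, and 7 were slow. The slow rises were a B3 and a bHLH gene. B3 TraesCS7A02G417300 (chromosome 7A from 608991007 to 608994390), of a plant DNA-binding family, had 74.2, 71.8, 72.7 and 75.2 CPM at W3.5, against 61.1, 60.4, 58.6 and 54.0 CPM at W3.0. Its rise of 0.33 ± 0.0565 on the log2 scale (SE, edgeR adjusted p = 0.000205) was about the size of that of AP1-A3, but its slow call held with each of the 20 libraries left out. bHLH TraesCS5A02G292900 (chromosome 5A from 502785905 to 502788083) had 55.6, 62.0, 68.4 and 50 CPM at W3.5, against 37.7, 37.3, 38.2 and 39.6 CPM at W3.0. The W3.5 libraries spread widely and still did not overlap those of W3.0 (log2 fold change 0.63 ± 0.108 SE, adjusted p = 0.000198). A second bHLH gene went the other way. TraesCS7A02G543300 (chromosome 7A from 720130601 to 720131944) had 105, 93.6, 92.8 and 108 CPM at W3.5, against 125, 137, 130 and 129 CPM at W3.0 (log2 fold change -0.38 ± 0.0575 SE, adjusted p = 3.46e-05).

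The other slow falls were a Trihelix, a NAC and 2 bZIP genes, all of DNA-binding families with wide roles in plants. Trihelix TraesCS4B02G019200 (chromosome 4B from 13993785 to 13995620) had 29.0, 35.4, 34.7 and 35.1 CPM at W3.5, against 42.9, 42.3, 57.2 and 54.5 CPM at W3.0 (log2 fold change -0.55 ± 0.0897 SE, adjusted p = 0.000102). bZIP TraesCS2A02G495400 (chromosome 2A from 726985966 to 726986810) had 15.6, 14.6, 12.9 and 14.9 CPM at W3.5, against 22.7, 20.9, 22.8 and 25.9 CPM at W3.0 (log2 fold change -0.67 ± 0.115 SE, adjusted p = 0.000204). In both genes every W3.5 library lay below every W3.0 library, and the call held with each library left out. NAC TraesCS7A02G247600 (chromosome 7A from 228261234 to 228263284) had 20.8, 21.6, 20.2 and 23.9 CPM at W3.5, against 36.6, 28.9, 29.9 and 26.1 CPM at W3.0 (log2 fold change -0.49 ± 0.111 SE, adjusted p = 0.00351). Its call was lost without W1 replicate 1, W3.0 replicate 1 or W3.5 replicate 1, 2 or 3, with log2 fold changes from -0.56 to -0.39 over all omissions. bZIP TraesCS5B02G094300 (chromosome 5B from 123760036 to 123761479) had 120, 123, 115 and 123 CPM at W3.5, against 135, 141, 140 and 135 CPM at W3.0. This was the smallest slow change on the list (log2 fold change -0.20 ± 0.0456 SE, adjusted p = 0.00457), and it did not pass on library totals alone, without a filter, or without W3.0 replicate 2, W3.0 replicate 3, W3.5 replicate 1 or W3.5 replicate 3 (-0.21 to -0.17 over all omissions).

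**Figure D5:**
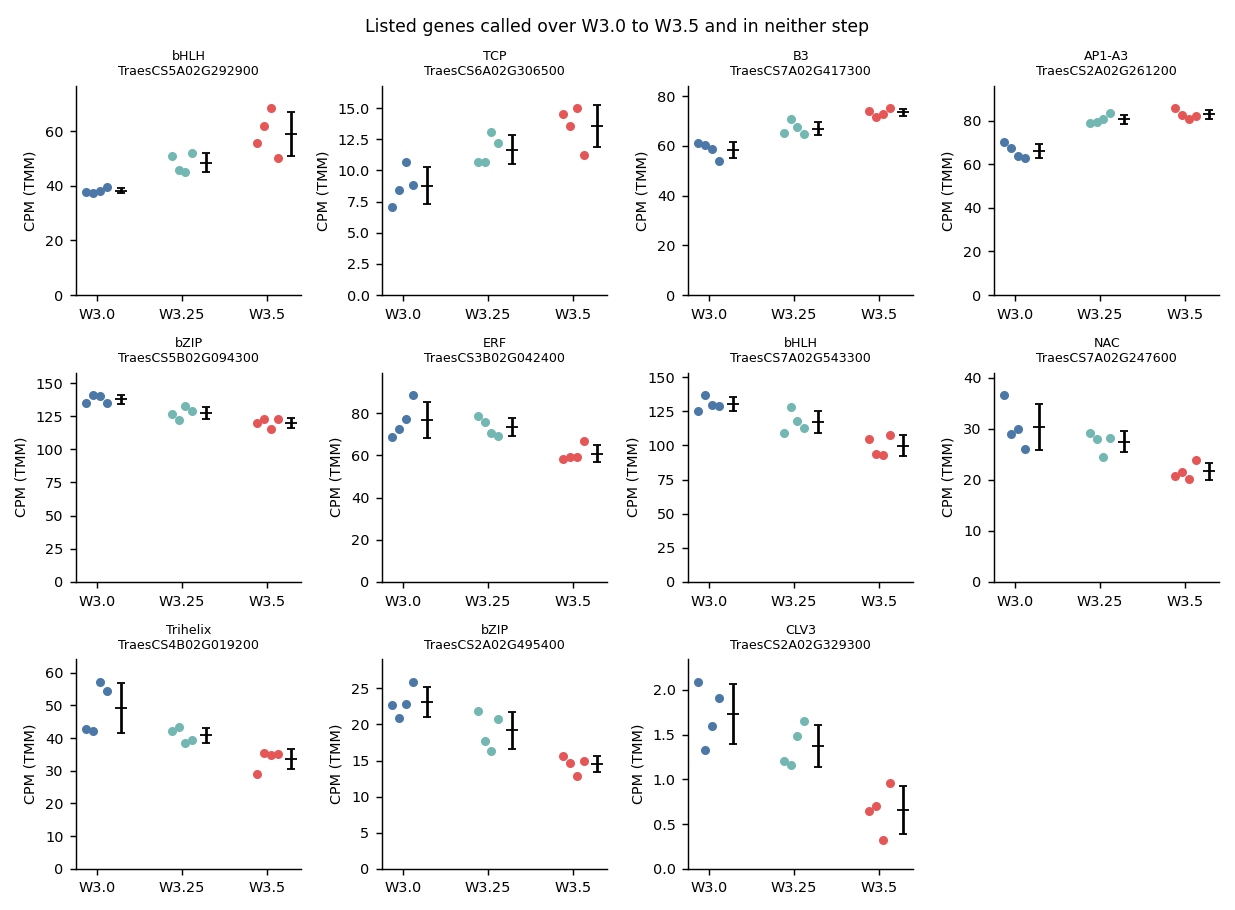
CPM of the 11 slow listed genes by stage, with 1 point per library and the mean ± SD of 4 libraries beside them. In every panel the W3.5 points lie wholly on 1 side of the W3.0 points, and the W3.25 mean lies between the other means, as in the bHLH gene of 5A with 48.4 ± 3.54 CPM at W3.25.

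The steepest falls of the list were those of the NF-YB pair, called in both steps as well. These genes encode subunits of a trimeric CCAAT-binding factor and fell to 4.30 ± 1.32 CPM (6A) and 3.39 ± 0.783 CPM (6B) at W3.5, against 20.8 ± 1.82 and 20.2 ± 1.91 CPM at W3.0 (SD, n = 4 each). Their log2 fold changes were -2.29 ± 0.185 and -2.59 ± 0.143 (SE, adjusted p = 1.73e-09 and 1.40e-12, edgeR). bZIP TraesCS5B02G332300 fell by 2.11 and TraesCS5A02G332000 by 1.69 on the log2 scale, and GATA genes TraesCS1A02G418200 and TraesCS1B02G448200 by 1.45 and 1.25. All of these passed in both steps except TraesCS1B02G448200, which passed in the first alone. In each of these pairs the A and B copies had the same direction. B3 TraesCS4A02G055500 rose by 1.69, with 86.1% of the change reached by W3.25.

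The count table gives identifiers without names, so the strongest slow changes outside the list are given by identifier. They are the 2 largest fitted rises and falls among 2302 slow DEGs with stages that did not overlap and no fewer than 10 counts per library at the higher stage, and no role is given for them. TraesCS3A02G033900 (chromosome 3A from 19313718 to 19314526) had 0.835, 0.737, 0.673 and 0.442 CPM at W3.5, against 0 in all 4 libraries at W3.0. Its 73 counts at W3.5 make it at least 23.1-fold higher than at W3.0, taking 3 counts per stage as the floor (adjusted p = 4.97e-05, edgeR). The 13 counts at W3.25 lie between, but 9 of them came from replicate 2. TraesCS7B02G286500 (chromosome 7B from 521612684 to 521618606) had 0.759, 0.62, 0.897 and 0.883 CPM at W3.5, against 0.0742 CPM in W3.0 replicate 3 and 0 in the other W3.0 libraries. The ratio of 86 counts to 2 was 40.7 (95% exact binomial interval 10.9 to 342, counting error only). TraesCS3A02G101600 (chromosome 3A from 65995530 to 65996144) had 0.0759, 0.0388, 0.0321 and 0.0402 CPM at W3.5, against 0.627, 0.627, 0.927 and 1.26 CPM at W3.0, with 0.295 ± 0.0471 CPM at W3.25. Its log2 fold change was -4.08 ± 0.429 (SE). Both of its steps passed edgeR at 0.01 (adjusted p = 0.00618 and 0.00571) and missed DESeq2 (adjusted p = 0.0122 and 0.0192), so by edgeR alone it would not count as slow. TraesCS5B02G229800 (chromosome 5B from 406875973 to 406877290) had 0.0759, 0.155, 0.0641 and 0.402 CPM at W3.5, against 1.42, 1.81, 1.41 and 1.63 CPM at W3.0 (log2 fold change -3.19 ± 0.419 SE). It had 0.764, 0.302, 0.825 and 0.499 CPM at W3.25, so that W3.25 replicate 2 lay below W3.5 replicate 4.

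The earlier change from W1 to W2 shares no library with the span, but both were tested in the same fit, with the same estimate of variation for each gene. The change from W1 to W2 gave 11057 DEGs, with 4010 genes higher at W2 (8.30%) and 7047 lower (14.6%). Of the slow rises, 163 were higher at W2 than at W1 (14.9%) and 381 lower (34.8%), and of the slow falls 229 were higher (16.8%) and 457 lower (33.4%). These shares were not tested against each other or against those of all genes. Slow falls had higher levels than all genes tested, and the parts of level and of the shared fit in these shares were not tested. The listed slow genes show the variety. AP1-A3 had a log2 fold change of 4.10 from W1 to W2 and rose again from W3.0 to W3.5, the TCP gene on 6A had one of -1.07 and rose later, and bZIP TraesCS2A02G495400 had one of 1.78 and fell later, each called at W2 against W1.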

How the data were processed

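RNA of pooled Kronos apices was sequenced as single reads of 100 bp over 2 lanes. The authors trimmed reads with Fastp, aligned them with STAR 2.7.5 to the A, B and unanchored sequences of IWGSC RefSeq v1.0, and deposited raw read counts per gene model from featureCounts 2.0.0 (mapping quality minimum 40). These counts were not normalized, span introns, ignore strand and drop reads over more than 1 model or with several alignments, which can lower near-identical homoeologs and overlapping or antisense models. Of the table's gene models, 79047 of the D genome held 0 counts and were dropped, leaving 190381. Coordinates are 1-based in that build.

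Totals, at 22229388 to 29655553 per library over 20 libraries, were filtered with filterByExpr (minimum count 10, minimum total 15), which kept 48336 models. All 20 libraries were fitted with stage as factor (15 residual degrees of freedom) in R 4.3.3 with edgeR 4.0.16 (TMM, quasi-likelihood test) and DESeq2 1.42.0 (Wald test), two-sided, with Benjamini-Hochberg adjustment over all models tested and a threshold of 0.01 in both. Log2 fold changes and adjusted p-values are edgeR's unless named, SE is the absolute log2 fold change over the square root of F, and CPM are scaled by TMM. Log2 CPM used a prior count of 2. Named genes were all listed genes and the 2 largest rises and falls among slow DEGs. The members and lists were chosen with earlier results of these data known. No set test was run. The scripts were tested on simulated data with 200 changed genes. Alternatives changed the tool, libraries in the fit, normalization, filter, threshold, fold minimum, step threshold, prior count and replicate block, and left out each library. Those of normalization changed the scaling in edgeR only, and DESeq2 kept its own size factors. Plots used matplotlib 3.10.9 under Python 3.11.15.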

Additional observations from a re-analysis of the deposited data

Results flagged for a closer look

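Of 66 groups of 4 values checked (32 genes with values given, and the library totals, at W3.5 and at W3.0), 4 held a library whose gap to its neighbour exceeded Dixon's 95% critical value, and chance flags about 1 group in 20. In the Trihelix gene TraesCS4B02G019200, W3.5 replicate 1 had 29.0 CPM, against 34.7 to 35.4 CPM in the other W3.5 libraries. In the ERF gene TraesCS3B02G042400, W3.5 replicate 4 had 67.0 CPM, against 58.1 to 59.2 CPM. In the SPL gene TraesCS7A02G246500, W3.0 replicate 2 had 154 CPM, against 163 to 164 CPM. In TraesCS7B02G286500, W3.0 replicate 3 had 0.0742 CPM, and the other W3.0 libraries had 0.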

How the results depend on the processing

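At an adjusted p of 0.05 the span gave 5377 DEGs (2419 higher, 2958 lower at W3.5) with 4015 slow ones (1766 higher, 2249 lower), and curvature 50 genes. With a 2-fold minimum in both tools and all 3 comparisons there were 856 DEGs (555 higher, 301 lower) and 664 slow ones (420 higher, 244 lower), not all of them slow in the main fit. Without a filter, curvature was called for 403 genes, and the cause was not tested. Leaving out each library in turn gave 1982 to 3988 DEGs (947 to 1736 higher, 1035 to 2252 lower), 1579 to 3093 slow DEGs (724 to 1355 higher, 855 to 1738 lower), 8 to 41 genes with curvature, and 24 to 35 listed genes called. The lowest DEG and slow counts came without W3.5 replicate 3 and the highest without W1 replicate 1. Without W3.0 replicate 3, 1092 DEGs were lower at W3.5. Curvature fell to 8 genes without W3.25 replicate 3, 11 without W3.25 replicate 2, 13 without W3.0 replicate 3 or W3.5 replicate 3 and 14 without W3.5 replicate 2, and was 41 without W3.5 replicate 4. The other tools, fits, scalings and filters left the DEG and slow counts within 1.5 times, but not the same genes. Of the 2462 slow DEGs, 1815 were slow with only the libraries of the compared stages in each fit, and 1966 with edgeR on library totals. The slow share of span DEGs, 81.2% in the main fit, was 73.2% with DESeq2 alone and 74.1% with only the compared stages. With steps at 0.05 and the span at 0.01, 1790 DEGs were slow. With edgeR on library totals and DESeq2 on its own scaling, 42.7% of span DEGs were lower at W3.5 (39.0% by edgeR alone), an alternative chosen after seeing the data.

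Replicate numbers do not pair these libraries, as the correlations of same-numbered W3.5 and W3.0 deviations were 0.102, -0.001, 0.01 and -0.044. With a replicate block, 2817 DEGs and 2273 slow DEGs were called, and AP1-A3 TraesCS2A02G261200 was not (adjusted p = 0.0112, edgeR). Over the single genes named, no call reversed in 1997 comparisons with an alternative, 25 calls were lost and 63 gained, while some uncalled fold changes near 0 changed sign. Genes with few counts, such as WUSb and CLV3, are limited by depth, and p-values reflect the spread between pools.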

Other observations

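Of 10324 low-confidence models tested, 103 were slow rises and 117 slow falls (2.13% slow), against 992 and 1250 of 38012 high-confidence models (5.90%). The median level was 1.76 CPM for low-confidence and 8.65 CPM for high-confidence models, and its part in these shares was not tested. On the A genome 5.19% of 23576 models were slow, and on the B genome 5.01% of 24248.

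DEGs of the span lay beside a tested neighbour that changed in the same direction for 14.9% of genes higher at W3.5 and 13.9% of genes lower, while 5.28% and 6.39% of uncalled genes had such a neighbour. These positions were not tested for departure from chance. The longest run was 7 adjacent tested models, all higher at W3.5, on chromosome 3A from 729226574 to 729534381 (307808 bp, 13 models in the interval, 5 of the 7 low-confidence and 3 of the 7 slow). Together they held 336 to 501 counts per W3.0 library, 705 to 937 per W3.25 library and 1111 to 1589 per W3.5 library. A run of 4 low-confidence models, all slow rises, lay within 5764 bp on chromosome 5B from 548431777 to 548437540. They held 24 to 46 counts per W3.0 library, 65 to 123 per W3.25 library and 82 to 179 per W3.5 library, so that the ranges overlapped only between W3.25 and W3.5.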
